A study of Mus musculus with 6 samples.

Results

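Ankrd1, Ankrd2, Ankrd23, Ccn1, Ccn2 and Csrp3 are genes of muscle ankyrin repeat proteins, CCN matricellular proteins and a muscle LIM protein that respond to stretch. The 6 genes were chosen by symbol from a table of read counts in windows around transcription start sites, and 5 of them were among its 49366 windows. Ccn2 has no row in the window table used here and was followed through peaks. Chromatin accessibility was read by ATAC-seq, where a transposase puts sequencing adapters into open DNA, in nuclei of muscle fibres sorted for the perinuclear protein PCM1. All mice were C57BL/6J males aged 8 weeks when AAV6 vectors were injected. Gastrocnemius (Gastroc) and tibialis anterior (TA) muscles were collected 28 days later. The contralateral muscles received AAV6:Yap-shRNA, which expresses a short hairpin RNA against Yap, or AAV6:LacZ-shRNA, the control hairpin, so both groups carried a vector and a hairpin. Each group had 3 samples, and each sample pooled 4 Gastroc and 4 TA muscles. The study calls its replicates biologically independent animals in a figure legend, while its methods state that each replicate pooled several muscles. The animals in each pool are not named, so the p-values measure the spread between these pools.

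Yap is a transcriptional coactivator that binds DNA through TEAD factors, and Ankrd1, Ccn1 and Ccn2 are among its best known target genes in cultured cells. Muscle ankyrin repeat proteins bind titin in the I-band of the sarcomere and can also enter the nucleus, and their genes are induced by mechanical load. CCN proteins are secreted, bind integrins and heparan sulfate, and shape the extracellular matrix. The comparison asks whether the promoters and neighbouring elements of these genes differed in accessibility between Yap-shRNA and LacZ-shRNA muscle.

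The promoters are shown because Yap reaches DNA through TEAD factors. The windows lie around the transcript starts of another annotation, GENCODE, and can join several starts, so a window is not always centred on a printed start. The sequences are from RefSeq on GRCm38.p6, whose promoter table holds 5 of the 6 genes and lacks Ccn2. Each covers the 250 bases before a RefSeq start, 5′ to 3′ on the gene's strand, except for Ankrd1, where only 30 bases around each match are given because that stretch lies in the first exon of a longer annotated transcript. Capitals mark the TEAD core CATTCC, read as GGAATG where it lies on the opposite strand, the element TATAAA of the TATA box and the variant TATATA, which was added to the search after the sequences had been seen.
Ankrd1, chr19:36120037-36120066, minus strand: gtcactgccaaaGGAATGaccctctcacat
Ankrd1, chr19:36119950-36119979, minus strand: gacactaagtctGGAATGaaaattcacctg
Ankrd2, chr19:42035777-42036026, plus strand: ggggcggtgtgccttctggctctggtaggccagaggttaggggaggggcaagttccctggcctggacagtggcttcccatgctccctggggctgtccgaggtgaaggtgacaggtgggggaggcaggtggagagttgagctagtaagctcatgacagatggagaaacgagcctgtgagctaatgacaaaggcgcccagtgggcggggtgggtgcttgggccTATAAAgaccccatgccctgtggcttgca
Ankrd23, chr1:36535740-36535989, minus strand: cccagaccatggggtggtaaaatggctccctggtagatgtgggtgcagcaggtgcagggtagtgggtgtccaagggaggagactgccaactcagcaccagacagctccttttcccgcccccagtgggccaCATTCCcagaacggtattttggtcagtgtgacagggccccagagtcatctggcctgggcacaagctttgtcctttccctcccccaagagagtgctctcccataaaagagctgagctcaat
Ccn1, chr3:145649986-145650235, minus strand: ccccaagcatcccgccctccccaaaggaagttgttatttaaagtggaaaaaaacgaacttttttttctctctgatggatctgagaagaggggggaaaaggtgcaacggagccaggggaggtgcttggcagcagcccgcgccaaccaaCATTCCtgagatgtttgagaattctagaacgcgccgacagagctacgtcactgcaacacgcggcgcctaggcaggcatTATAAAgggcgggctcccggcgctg
Csrp3, chr7:48848052-48848301, minus strand: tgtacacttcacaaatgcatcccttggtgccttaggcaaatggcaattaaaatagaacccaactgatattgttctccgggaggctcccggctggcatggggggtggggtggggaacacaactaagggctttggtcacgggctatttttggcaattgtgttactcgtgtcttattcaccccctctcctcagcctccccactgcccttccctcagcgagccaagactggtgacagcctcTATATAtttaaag

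The TEAD core was found at 3 of the 5 genes, for which 7 RefSeq promoters were searched. The second promoters of Ankrd23 and Csrp3, which are not printed, held none, and the shares given below are per promoter. Ankrd1 held 2 matches, which began 210 and 123 bases before the start, Ccn1 held 1 at 103 bases and Ankrd23 held 1 at 120 bases. Those of Ccn1 and Ankrd23 match the longer form ACATTCC. Of 32851 RefSeq promoters of the same length, 12.6% hold CATTCC and 3.25% hold ACATTCC on either strand. Ankrd2 and Csrp3 held no TEAD core in the bases searched. TATAAA began 29 bases before the start of Ankrd2 and 25 bases before that of Ccn1, against a share of 12.4% of all promoters. TATATA began 27 bases before the Ankrd1 start and 13 bases before the Csrp3 start, against a share of 5.25%. The E-box CANNTG, bound by the myogenic factors, occurred 4 times at the printed Csrp3 promoter and 3 times at Ankrd2. It occurred 2 times at the printed Ankrd23 promoter and 1 time at Ankrd1, and 66.2% of all promoters hold it. Of the second promoters, that of Csrp3 held 4 and that of Ankrd23 none. The AP-1 string TGANTCA, the CArG box of SRF and the MEF2 site were in none of these 5 promoters, nor in the second RefSeq promoters of Ankrd23 and Csrp3. Such matches are letters in a window and no evidence of binding.

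Between 3326803 and 10319467 counts fell in the windows of a sample, and the controls 1 and 2 had the fewest. Values are CPM, read counts scaled to the library's total with TMM factors. A hairpin acts on RNA, so accessibility at Yap1 (log2 fold change 0.039, SE 0.18) is no check of the knockdown. Cell type markers were read at promoter windows here and not as transcripts, and all 6 samples were sorted, so they do not check the sort. The 10 muscle fibre windows had a median of 26.1 CPM per kb. Medians were 3.63 to 6.68 for fibroblast, endothelial, leukocyte, smooth muscle and satellite cell windows. Single fibre windows ran from 4.10 (Myh1) and 5.28 (Myh2) to 61.0 CPM per kb, and the satellite cell marker Cdh15 stood at 19.9. Another gene's window overlaps 4 of the 10 fibre windows, Myh1 and Ckm among them, and 4 of the 8 fibroblast windows. It also overlaps 1 endothelial and 2 leukocyte windows, and the levels of all such windows are uncertain. Rows under a mean count of 10 had been removed, so no marker with a row could be at 0. Summed fibre marker CPM was 1350, 1927 and 1774 in the LacZ-shRNA replicates and from 1469 to 1671 in Yap-shRNA, so LacZ-shRNA replicate 1 was the lowest of all. The summed CPM of the 8 fibroblast markers, fibroblasts being another source of CCN proteins, was 235 to 280 in LacZ-shRNA and 258 to 318 in Yap-shRNA. The sums in LacZ-shRNA and Yap-shRNA were 134 to 152 and 132 to 145 CPM for 7 endothelial markers, and 94.7 to 109.9 and 104 to 109 CPM for 6 of 7 leukocyte markers, Itgam having no row. They were 69.3 to 77.5 and 68.96 to 77.4 CPM for 5 smooth muscle and pericyte markers, and 109.6 to 120.4 and 105 to 115 CPM for 5 satellite cell markers. Whether these differences have a part in the values given next was not tested, and counts from fewer nuclei of a type cannot be told apart from less accessibility per nucleus.

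Among themselves the promoters differed widely in accessibility. Levels are compared per kb of window, since a window joins the stretches of 1 kb either side of each transcript start of a gene and so differs in length. Ankrd23 was the highest, at 33.6 CPM per kb over the 6 samples (lowest sample 28.8, highest 39.9). Ankrd2 followed at 20.0 CPM per kb (16.3 to 26.3), and the ranges of these neighbours did not overlap. Ankrd1 at 6.34 CPM per kb (4.55 to 7.75) and Csrp3 at 6.22 CPM per kb (5.73 to 7.19) overlapped and are not ordered. The Csrp3 window joins 4 starts over 7571 bp, against 2190 bp for Ankrd1, so its level per kb is an average over several stretches. By CPM of the whole window, Csrp3 stood at the 90.6 percentile of all windows and Ankrd1 at the 65.7 percentile. The Ccn1 window gave the lowest figure, 1.5 CPM per kb (1.18 to 2.08), but this figure is too low and cannot rank the promoter. The window of the lincRNA Gm17501 covers 83.5% of the Ccn1 window. The Ccn1 window held 135 counts over the 6 samples, where the promoter peak, which lies wholly inside it, held 1109. That peak held 22.2 CPM per kb of peak, at the 33.5 percentile of all promoter peaks. In Ankrd2 and Ankrd23, whose windows overlap no other gene, the windows held 0.782 and 0.839 of the counts of their promoter peaks, which extend beyond them.

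The 4 genes with undisturbed windows fell into 2 kinds. Ankrd23 and Ankrd2 each had a peak, that is, a region called accessible in more than 1 sample, over their starts. Both peaks were wide, 3668 bp at Ankrd23 and 2927 bp at Ankrd2, wider than 98.3% and 96.4% of the 12725 promoter peaks. Ankrd1 and Csrp3 had no peak over a start, and the authors' peak numbers on each side run on without a gap, so no peak between them was dropped for low counts. Of 39022 windows that overlap no other gene, 19.0% held a peak, with a median of 9.13 CPM per kb, against 4.29 for the rest. Ankrd23 stood at the 99.1 percentile and Ankrd2 at the 93.3 percentile of the windows with a peak. Ankrd1 stood at the 85.1 percentile and Csrp3 at the 83.8 percentile of the windows without one. A window without a peak was not always low. Atp2a1, Tnni2 and Ckm, chosen after their values were seen, are fibre markers without a peak, although their windows held 61.0, 55.2 and 41.04 CPM per kb. The Ckm window overlaps that of another gene.

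**Figure D1:**
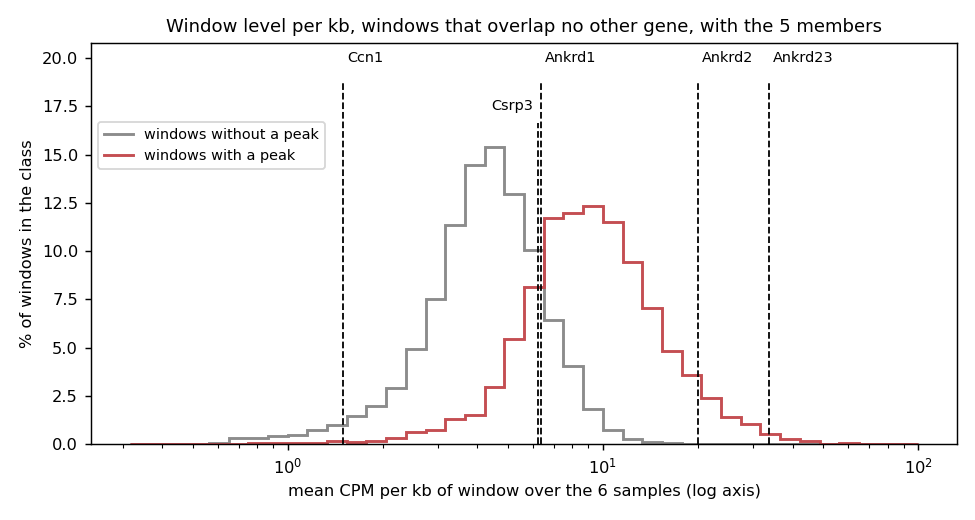
Distribution of window level (mean CPM per kb over the 6 samples, log axis) for windows that overlap no other gene, drawn as the percentage of windows without a peak (grey) and with a peak (red) in each bin. Dashed lines mark the 5 genes, with Ankrd1 and Csrp3 side by side at 6.34 and 6.22, and Ccn1 at 1.5. The Ccn1 window is overlapped by another gene and holds fewer counts than the peak inside it, so its line does not rank the promoter.

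At the promoters, none of the 5 windows passed the threshold of an adjusted p under 0.05 in edgeR's quasi-likelihood test, where 0.0223% of all windows did. The number with an unadjusted p under 0.05 was also 0, against 4.9% of all windows, and the likelihood-ratio test, limma voom and DESeq2 gave 0 calls and 0 such p-values, with no adjusted p from DESeq2 for 2 of the 5. The LacZ-shRNA and Yap-shRNA samples overlapped in all 5 windows, and they did not in 10.1% of all windows. All 5 estimates lay below 0, as did 52.7% of all windows, and their median log2 fold change was -0.19 against -0.014 for all windows. A value below 0 means less signal with Yap-shRNA.

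Ankrd1 encodes the cardiac ankyrin repeat protein, and its window (chromosome 19, 36118910 to 36121099, GRCm38) spans 2 transcript starts and the first exon. LacZ-shRNA replicates 1, 2 and 3 held 13.9, 16.98 and 15.7 CPM, and Yap-shRNA replicates 1, 2 and 3 held 14.6, 12.2 and 9.97 CPM, an order kept in every list of 3 values from here on. Yap-shRNA replicates 2 and 3 lay below every control, while Yap-shRNA replicate 1 lay above LacZ-shRNA replicate 1. Means were 15.5 ± 1.53 and 12.2 ± 2.30 CPM (SD, n = 3 per group). The log2 fold change of -0.33 (SE 0.18, 95% interval -0.69 to 0.033, adjusted p 0.946 in edgeR) was the furthest from 0 of the 5, and its interval still included 0. Individual counts were between 53 and 143.

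Ankrd2 encodes a relative of Ankrd1 found mainly in slow fibres, and its window lies on chromosome 19 from 42035000 to 42037038, about its first exon. LacZ-shRNA samples stood at 33.3, 42.9 and 53.5 CPM, and Yap-shRNA samples at 36.3, 40.2 and 38.6 CPM. The controls ran from the lowest to the highest of the 6 samples, and the Yap-shRNA samples lay between them. The means of 43.3 ± 10.1 and 38.4 ± 1.99 CPM (SD, n = 3 per group) gave a log2 fold change of -0.19 (SE 0.15 and adjusted p 0.949 in edgeR). Without LacZ-shRNA replicate 3 the estimate was 0.031, so its direction rests on that sample.

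Ankrd23, the diabetes-related ankyrin repeat protein, has a window on chromosome 1 from 36534739 to 36537883 with 3 transcript starts. Its CPM values were 98.6, 115 and 125.5 under LacZ-shRNA and 113, 90.6 and 91.3 under Yap-shRNA. Yap-shRNA replicates 2 and 3 were the lowest of the 6, and Yap-shRNA replicate 1 lay among the controls, as it did for Ankrd1. Means of 113 ± 13.6 and 98.4 ± 12.8 CPM (SD, n = 3 per group) gave a log2 fold change of -0.20 (SE 0.14 and adjusted p 0.949 in edgeR). Of the pairs of these genes, Ankrd1 and Ankrd23 had the most alike profile over the 6 samples, with a root mean square difference of 0.136 in centred log2 CPM, and Ankrd1 and Ankrd2 the least alike, at 0.262. By this measure 0.787% of windows lay nearer to Ankrd1 than Ankrd23 did, and 25.3% lay nearer than Ankrd2 did.

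LacZ-shRNA replicate 1, which had the lowest fibre marker sum, also held the lowest of the control values in all 5 windows. Without it, Ankrd2 gave a log2 fold change of -0.37, Ankrd23 -0.30 and Ankrd1 -0.40, and each had an unadjusted p under 0.05, as did 6.91% of all windows in that fit. Csrp3 and Ccn1, described next, were then at -0.079 and -0.33 without such a p. None passed after adjustment, the lowest adjusted p being 0.264 for Ankrd2. Ankrd1 also had an unadjusted p under 0.05 in edgeR when Yap-shRNA replicate 1 was left out. Its log2 fold change was then -0.47, and 3.33% of all windows had such a p in that fit. Ankrd23 did so with the GC offset, at -0.23 (unadjusted p 0.045 in edgeR, against 6.42% of all windows under 0.05).

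Csrp3, the muscle LIM protein of the Z-disc, has 4 annotated starts on chromosome 7 whose window falls in 3 stretches between 48838560 and 48849033. The 3 controls held 44.1, 54.5 and 45.2 CPM and the 3 Yap-shRNA samples 48.1, 47.2 and 43.3 CPM. Apart from LacZ-shRNA replicate 2 the samples lay close together, and the ranges of the groups overlapped. Means were 47.9 ± 5.68 and 46.2 ± 2.51 CPM (SD, n = 3 per group). The log2 fold change of -0.038 (SE 0.14, 95% interval -0.31 to 0.24, adjusted p 0.988 in edgeR) was nearest to 0 of the 5, and it took the opposite sign when LacZ-shRNA replicate 2 (0.050) or, in turn, Yap-shRNA replicate 3 (0.0029) was left out.

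Ccn1, formerly Cyr61, is a secreted integrin ligand and an immediate early gene, with a single start and a window on chromosome 3 from 145648981 to 145650981. It stood at 2.35, 4.17 and 3.19 CPM with LacZ-shRNA and at 2.75, 2.79 and 2.78 CPM with Yap-shRNA, from 13 to 30 counts a sample. The Yap-shRNA samples were nearly equal and lay inside the spread of the controls. The log2 fold change was -0.17 (SE 0.33, 95% interval -0.84 to 0.50, adjusted p 0.979 in edgeR). At this depth neither a drop nor a rise of moderate size could be seen in the window, and the promoter peak rests on more counts.

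**Figure D2:**
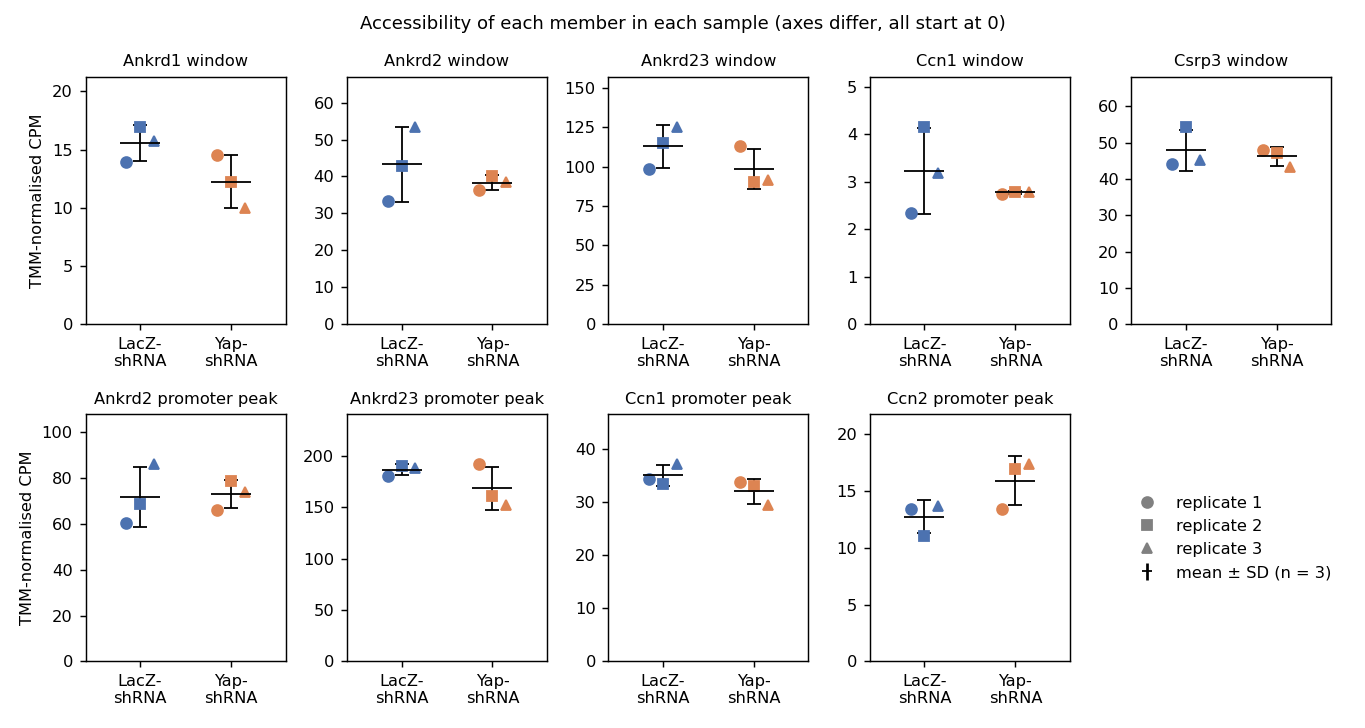
TMM-normalised CPM in each sample for the 5 promoter windows (top) and the 4 promoter peaks (bottom), LacZ-shRNA in blue and Yap-shRNA in orange, with symbols for replicates 1 to 3 and black bars for the mean ± SD (n = 3 per group). The groups overlap in all 9 panels, although 2 Yap-shRNA samples lie beyond every control in some, such as the Ankrd1 window (below) and the Ccn2 peak (above).

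Peaks were linked to a gene when they overlapped it or lay within 50 kb of its 5′ end, which gave 24 peaks. Of these, 4 were promoter peaks (Ankrd2, Ankrd23, Ccn1 and Ccn2), 1 was genic, at the 3′ end of Ankrd2 and a start of Hoga1, and 19 were flanking. Start windows of other genes held 7 of the flanking peaks, so they cannot be assigned to the linked gene alone. None of the 24 was called by edgeR, against 0.618% of all 36097 peaks, and 14 estimates were above 0 (49.5% of all peaks) and 10 below. An unadjusted p under 0.05 was found for 2 (8.9% of all peaks), and the groups did not overlap in 3 (13.3% of all peaks). The likelihood-ratio test and limma voom gave 0 calls with 2 such p-values each, and DESeq2 gave 0 calls with 1, without an adjusted p for 4 of the peaks.

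The Ankrd23 promoter peak (chromosome 1, 36533340 to 36537007) covers all starts of the gene and was the strongest of the 24. LacZ-shRNA samples stood at 181, 191 and 189 CPM, and Yap-shRNA samples at 192, 161 and 152.5 CPM. As in the window, Yap-shRNA replicates 2 and 3 were the lowest but Yap-shRNA replicate 1 was here the highest of all 6 samples. Its log2 fold change was -0.14 (SE 0.14 and adjusted p 0.859 in edgeR), and -0.25 without Yap-shRNA replicate 1 or -0.094 without Yap-shRNA replicate 3.

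The Ankrd2 promoter peak (chromosome 19, 42033593 to 42036519) reaches from upstream of the gene into its first exon. Its CPM values were 60.5, 68.8 and 86.2 under LacZ-shRNA and 66.2, 78.5 and 74.1 under Yap-shRNA. The Yap-shRNA samples again lay inside the range of the controls. The log2 fold change of 0.0046 (SE 0.13, 95% interval -0.26 to 0.27, adjusted p 0.997 in edgeR) had no stable direction. The -0.19 of the window and this value come from overlapping stretches of the same promoter, and the 95% interval of each includes 0.

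The Ccn1 promoter peak (chromosome 3, 145649112 to 145650623) covers the start and the printed promoter, and it also lies in the start window of Gm17501. The 3 controls held 34.5, 33.5 and 37.3 CPM and the 3 Yap-shRNA samples 33.8, 33.1 and 29.4 CPM. One Yap-shRNA sample lay between the lowest and the middle control and the other 2 lay below all controls. This gave a log2 fold change of -0.14 (SE 0.13, 95% interval -0.41 to 0.13, adjusted p 0.856 in edgeR), which was -0.083 without LacZ-shRNA replicate 3.

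Ccn2, or connective tissue growth factor, is the secreted relative of Ccn1 and was measured by its promoter peak alone (chromosome 10, 24595348 to 24596181), since the gene has no window row. At 834 bp and 17.2 CPM per kb it was the smallest promoter peak of the set, at the 9.38 percentile of all promoter peaks by level per kb. LacZ-shRNA samples stood at 13.4, 11.0 and 13.7 CPM, and Yap-shRNA samples at 13.4, 16.95 and 17.4 CPM. Yap-shRNA replicates 2 and 3 lay above every control and replicate 1 among them. The log2 fold change of 0.29 (SE 0.19, 95% interval -0.088 to 0.67, adjusted p 0.720 in edgeR) was above 0, where those of the Ankrd23 and Ccn1 promoter peaks were below it. The peak also lies in the start window of the transcript Gm15270, which covers 97.5% of the stretch that a Ccn2 window would span. It held 488 counts over the 6 samples. Why the gene has no window row was not tested.

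**Figure D3:**
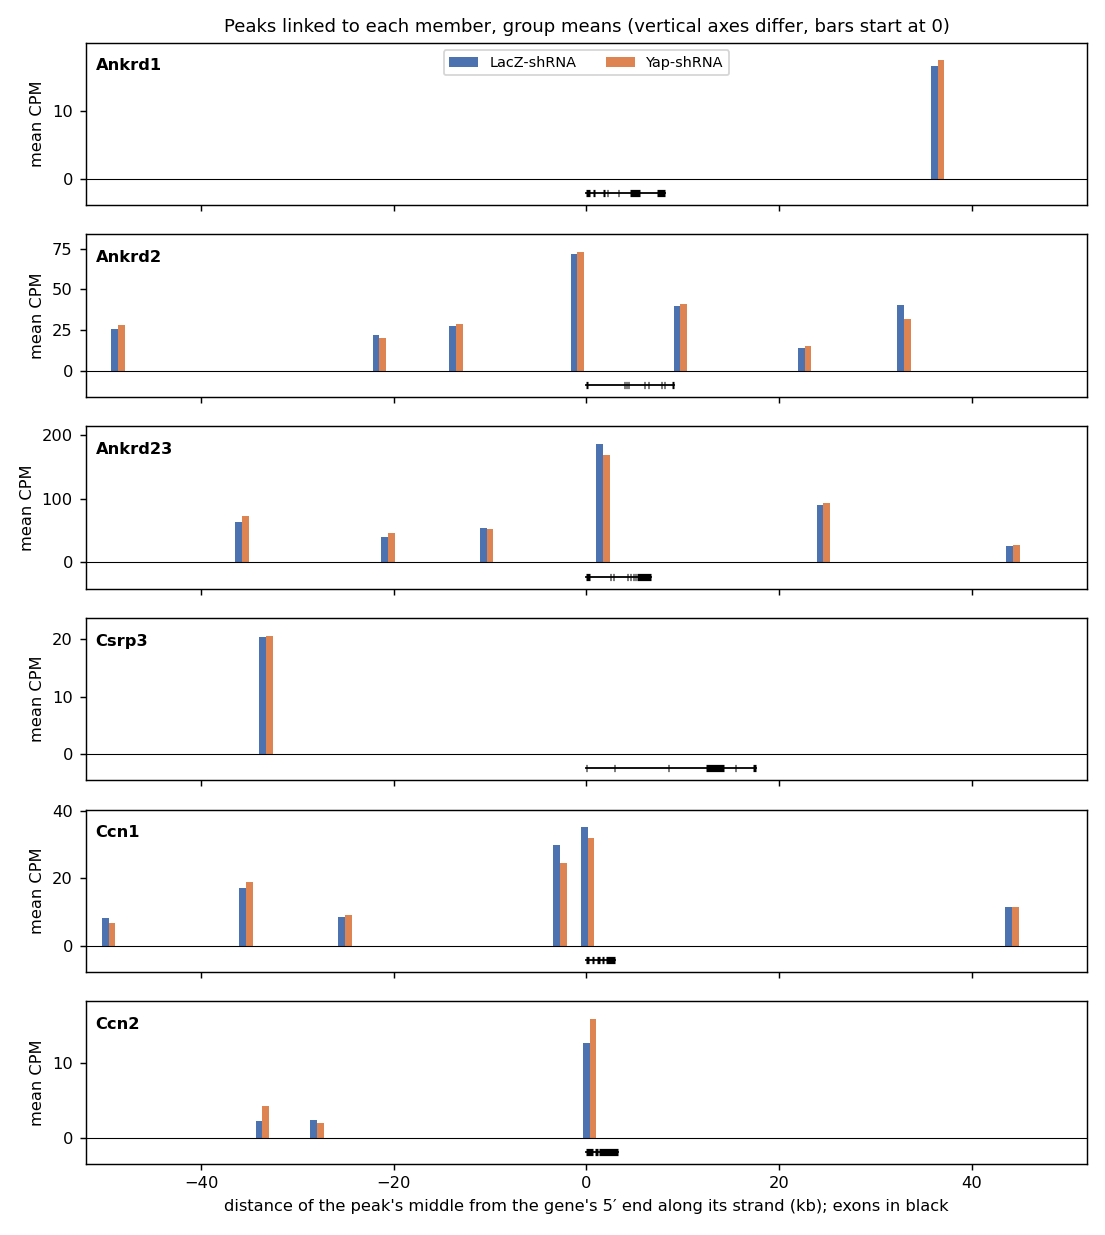
Mean CPM in LacZ-shRNA (blue) and Yap-shRNA (orange) for the peaks linked to each gene, by distance of the peak's middle from the gene's 5′ end along its strand in kb, with the gene's exons in black under each panel. Vertical axes differ and bars start at 0. Ankrd2, Ankrd23, Ccn1 and Ccn2 have a peak at the start, while Ankrd1 and Csrp3 have 1 peak each, over 30 kb away.

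The flanking peaks held the 3 cases in which the groups did not overlap. A peak 32.9 kb downstream of the Ankrd2 5′ end lies over Hoga1, a mitochondrial aldolase gene (chromosome 19, 42068334 to 42069542). Its CPM values were 37.5, 44.2 and 39.3 under LacZ-shRNA and 31.7, 31.4 and 32.9 under Yap-shRNA. All Yap-shRNA samples lay below all controls. The log2 fold change was -0.32 (SE 0.13, unadjusted p 0.017 and adjusted p 0.392 in edgeR). Scaled by library size alone it was -0.18 (unadjusted p 0.222 in edgeR).

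A peak 33.6 kb upstream of Ccn2, over Gm15270 (chromosome 10, 24561322 to 24562301), differed in the other direction. The 3 controls held 2.74, 1.27 and 2.65 CPM and the 3 Yap-shRNA samples 4.03, 5.28 and 3.64 CPM. Its counts were low, with 3 in the second control and 38 in the second Yap-shRNA sample. That is a log2 fold change of 0.86 (SE 0.40, 95% interval 0.068 to 1.66, unadjusted p 0.033 and adjusted p 0.492 in edgeR).

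The third lies 20.6 kb upstream of Ankrd23 over the starts of Sema4c and D430040D24Rik (chromosome 1, 36556514 to 36558456). LacZ-shRNA samples stood at 37.0, 41.6 and 39.8 CPM, and Yap-shRNA samples at 42.6, 50.03 and 46.5 CPM. All Yap-shRNA samples lay above all controls, by a log2 fold change of 0.24 (SE 0.13 and adjusted p 0.612 in edgeR).

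For Ccn1 the flanking peak with the smallest p lay 2221 bp upstream of the start at its near edge, at a start of Gm17501 (chromosome 3, 145652202 to 145653220). Its CPM values were 26.3, 32.3 and 31.5 under LacZ-shRNA and 27.9, 26.8 and 18.9 under Yap-shRNA. Yap-shRNA replicate 3 was far below the rest, and the other two lay among the controls. Its estimate was a log2 fold change of -0.28 (SE 0.15 and adjusted p 0.612 in edgeR), and -0.15 without Yap-shRNA replicate 3. The single peaks linked to Ankrd1 and Csrp3 sit at the starts of Rpp30 and of E2f8 and Gm2788, with log2 fold changes of 0.045 (SE 0.17) and -0.020 (SE 0.19), and neither is an element of the linked promoter.

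**Figure D4:**
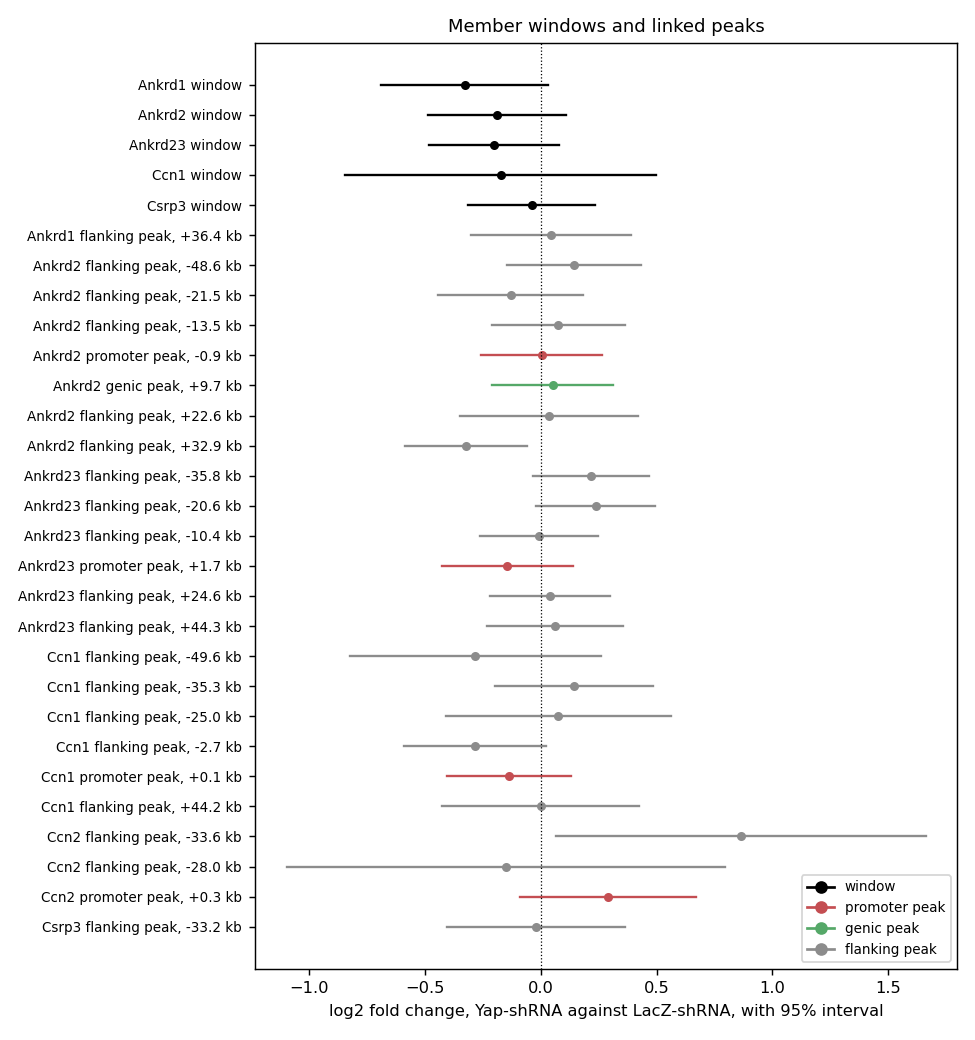
Log2 fold change, Yap-shRNA against LacZ-shRNA, with its 95% interval for the 5 windows (black) and the 24 linked peaks (promoter red, genic green, flanking grey), labelled by gene and distance in kb. Intervals of all windows and promoter peaks cross 0, and those of the Ankrd2 peak at +32.9 kb and the Ccn2 peak at -33.6 kb do not.

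The neighbours of these genes in the same pathways were taken as 4 lists of 70 genes, of which 68 had a window. None of the 68 was called by edgeR (0.0223% of all windows), and 22 estimates were above and 46 below 0 (52.7% of all windows). Titin and its partners held 24 of those below 0. An unadjusted p under 0.05 was found for 2 higher and 3 lower windows (1.9% and 3.01% of all windows), and likewise for 5 in all by the likelihood-ratio test, limma voom and DESeq2, which called 0. DESeq2 gave no adjusted p for 10 of them. Groups without overlap occurred in 0 of 6 windows of the closest relatives and 1 of 28 of titin and its partners. They occurred in 2 of 20 windows of other Yap and TEAD targets and 3 of 14 of load-responsive genes, against 10.1% of all windows.

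The closest relatives, the CCN genes Ccn3 to Ccn6 and the LIM protein genes Csrp1 and Csrp2, had 3 estimates above and 3 below 0 and a median of -0.00021. Without LacZ-shRNA replicate 1 there were 5 below 0 (49.3% of all windows), with a median of -0.084. Ccn3, a secreted CCN protein, had a log2 fold change of -0.22 (SE 0.18) and Ccn5 of -0.19 (SE 0.16). Csrp1 gave 0.18 (SE 0.15) and Csrp2 0.047 (SE 0.14).

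Titin and its Z-disc and I-band partners, to which the ankyrin repeat proteins and Csrp3 bind or lie close, had 24 of 28 estimates below 0 and a median log2 fold change of -0.15, against 52.7% below 0 and a median of -0.014 for all windows. The 10 muscle fibre markers also had 7 estimates below 0 and a median of -0.096. Tcap, the titin cap protein that binds Csrp3, stood at 92.8, 158 and 147 CPM with LacZ-shRNA and at 101, 91.8 and 91.6 CPM with Yap-shRNA. LacZ-shRNA replicates 2 and 3 stood well above the rest and LacZ-shRNA replicate 1 among the Yap-shRNA samples. Its log2 fold change was -0.48 (SE 0.15, unadjusted p 0.0031 and adjusted p 0.946 in edgeR). Xirp1, an actin-binding protein, gave -0.30 (SE 0.14 and adjusted p 0.946 in edgeR). On the other side, Fhl1, a LIM protein of the sarcomere, gave 0.25 (SE 0.15) and the protease gene Capn3 0.11 (SE 0.14), and Ttn itself gave 0.040. The list moved with single controls. Without LacZ-shRNA replicate 1 its median was -0.26, 26 of 28 estimates were below 0 and 16 had an unadjusted p under 0.05, where 49.3% of all windows were below 0 and 6.91% had such a p. Tcap was called in that fit (log2 fold change -0.68, edgeR adjusted p 2.67e-06), as were 157 of all windows, against 11 with every sample. The fibre markers moved in the same way, with 9 of 10 below 0, a median of -0.24, 5 unadjusted p-values under 0.05 and 1 call. Without LacZ-shRNA replicate 3 the median of the titin list was -0.054 and 19 were below 0 (52.1% of all windows).

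Other Yap and TEAD targets had 10 estimates above and 10 below 0 and a median of -0.0079, and 1 listed gene, Foxf2, had no row. The split was not stable. There were 16 below 0 without LacZ-shRNA replicate 1 (median -0.099), where 49.3% of all windows were below 0. With the GC offset there were 13 (median -0.038, 50.2% of all windows). With scaling by library size alone there were 6 (median 0.055, 41.4% of all windows). Crim1, a transmembrane protein that binds growth factors, stood at 54.5, 54.8 and 62.8 CPM with LacZ-shRNA and at 46.0, 49.2 and 47.2 CPM with Yap-shRNA, without overlap, for a log2 fold change of -0.28 (SE 0.13, unadjusted p 0.040 and adjusted p 0.946 in edgeR). Gadd45a, a stress-induced growth arrest gene, gave -0.32 (SE 0.25), also without overlap. The kinase gene Nuak2 gave 0.20 (SE 0.16), or -0.0068 without LacZ-shRNA replicate 1, and the RNA-binding protein gene Rbms3 0.17 (SE 0.15). The Crim1, Gadd45a and Rbms3 windows overlap another gene, and their counts are uncertain.

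Load-responsive genes of the SRF pathway and immediate early genes had 9 of 14 estimates below 0, with a median of -0.068, and Jun had no row. Without LacZ-shRNA replicate 3 there were 5 below 0 (median 0.022), against 52.1% of all windows. Without LacZ-shRNA replicate 1 there were 11 (median -0.15), 6 of them with an unadjusted p under 0.05. In that fit 49.3% of all windows were below 0 and 6.91% had such a p. Vgll2, a TEAD cofactor of muscle, gave -0.23 (SE 0.17) and Acta1, skeletal actin, -0.16 (SE 0.15). The SRF coactivator gene Mrtfa gave 0.32 (SE 0.14 and unadjusted p 0.029 in edgeR) and the stretch-activated channel gene Piezo1 0.30 (SE 0.14 and unadjusted p 0.040 in edgeR), and their groups did not overlap. Mrtfa stood at 65.7, 94.8 and 82.7 CPM with LacZ-shRNA and at 98.9, 96.3 and 105.7 CPM with Yap-shRNA, and LacZ-shRNA replicate 1 was the lowest there too. Without that sample Mrtfa gave 0.19 and Piezo1 0.17, with unadjusted p-values of 0.068 and 0.079 in edgeR. With every sample both had an adjusted p of 0.946 in edgeR, and both windows overlap another gene.

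**Figure D5:**
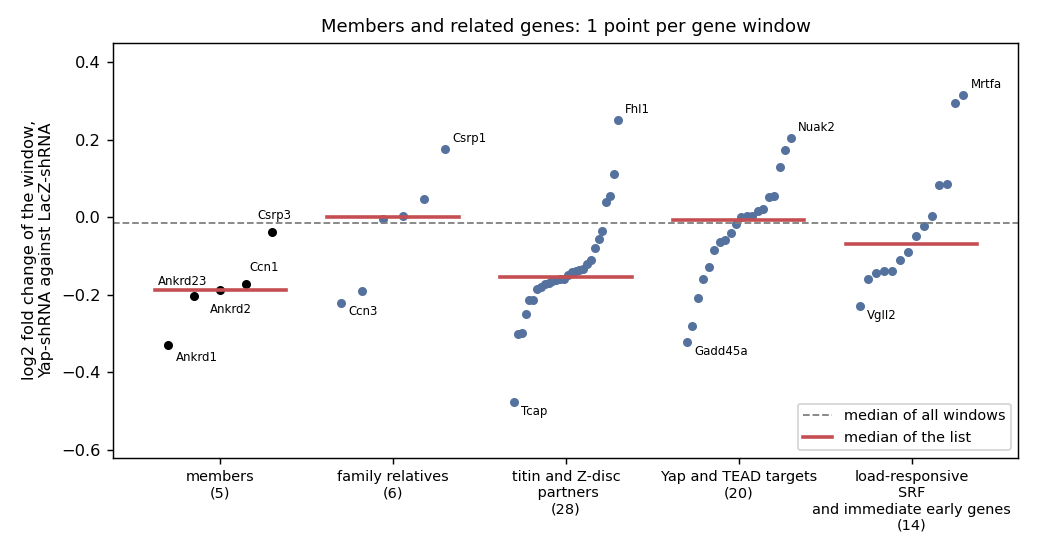
Log2 fold change of the promoter window, Yap-shRNA against LacZ-shRNA, 1 point per gene, for the 5 genes with a window (black) and the 4 lists of related genes (blue), with the number of genes in brackets. Red bars are list medians and the dashed line is the median of all windows (-0.014); the titin and Z-disc list has a median of -0.15 and 24 of 28 points below 0.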

How the data were processed

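The members and lists were chosen with earlier results of these data known. The authors mapped paired-end reads to GRCm38 with BWA 0.7.17, took out duplicates (samtools 1.8), called peaks in each sample (MACS 1.4.2-1), merged peaks shared by samples and counted reads in them (featureCounts 1.5.0). The deposited tables hold whole-number read counts without normalization, with rows under a mean count of 10 removed. Window identifiers were matched to GENCODE annotation of the same build (49366 of 49366). Counts were compared over all rows with edgeR 4.0.16 in R 4.3.3 (TMM, quasi-likelihood test, no covariate, Benjamini-Hochberg at 0.05), a procedure tested on simulated data. With 3 samples against 3, an exact permutation test cannot go below 0.1, so none was used. The alternatives tried were DESeq2 1.42.0, limma voom 3.58.1 and the likelihood-ratio test, library size alone, RLE, rows with a mean count of 50 or more, leaving out the top 1% of rows, a replicate block, a GC offset, an adjusted p under 0.01, narrower peak links and leaving out each sample. Recomputing the related lists, their named genes and the fibre markers under these was chosen after seeing the data. All member promoter peaks, each member's other peak with the smallest p, and the 2 related genes per list and direction with the smallest p are named; Ttn and 3 fibre markers are named in addition. The transposase offset cannot be examined in count tables.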

Additional observations from a re-analysis of the deposited data

How the results depend on the processing

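The counts of called member windows (0) and member peaks (0) were the same under the 17 and 19 alternatives run for each. For the related genes the count was 0, and from 0 to 1 with 1 sample left out, the 1 being Tcap without LacZ-shRNA replicate 1. Of 571 alternative values for 36 single results, 34 had the opposite sign, none of them for the windows of Ankrd1 (-0.47 to -0.21), Ankrd23 (-0.32 to -0.11) or Ccn1 (-0.33 to -0.028). With 1 sample left out, the log2 fold change ran from -0.37 to 0.031 for the Ankrd2 window, from -0.079 to 0.050 for the Csrp3 window, from -0.043 to 0.13 for the Ankrd1 flanking peak, from -0.11 to 0.18 for the Ankrd2 promoter peak from -0.33 to 0.24 for the Csrp3 flanking peak, from -0.067 to 0.13 for the Csrp2 window and from -0.0068 to 0.44 for the Nuak2 window. The Ankrd23 and Ccn1 promoter peaks then ran from -0.25 to -0.094 and from -0.18 to -0.083, and the Ccn1 flanking peak from -0.39 to -0.15. List medians ran from -0.084 to 0.057 for the family relatives, from -0.099 to 0.0072 for the Yap and TEAD targets, from -0.15 to 0.022 for the load-responsive genes and from -0.24 to -0.019 for the fibre markers. Library size alone, which shifted the median of all windows to 0.046 and that of all peaks to 0.14, gave 0.028 for the Csrp3 window, 0.0012 and 0.0019 for the Ankrd23 and Ccn1 promoter peaks, 0.12 for the Csrp3 flanking peak, -0.14 for the Ccn1 flanking peak and medians of 0.060 for the family relatives and 0.055 for the Yap and TEAD targets. The median of the family relatives was also above 0 under the likelihood-ratio test (0.00012), limma voom (0.00093) and the replicate block (0.0055), as was that of the Yap and TEAD targets under limma voom (0.0010). The Ankrd2 promoter peak was at -0.0022 without the top 1% of rows and at -0.025 with the GC offset. The cause of these changes was not tested.

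The labels do not say whether same-numbered samples came from the same animals. Same-numbered samples correlated at 0.19, -0.12 and 0.092 in windows and 0.016, -0.093 and -0.14 in peaks. Samples with unlike numbers correlated at -0.26 to 0.20 in windows and -0.035 to 0.14 in peaks. With so few samples in a group, these correlations cannot decide whether the samples are paired. With a replicate block the counts of called members, peaks and related genes stayed at 0 and the Ankrd1 window was at -0.35, and with the block and the GC offset together the Ankrd2 promoter peak was at -0.0042. Over all rows the block gave 13 called windows against 11 and 207 called peaks against 223. The Ccn1 window could not be given at a mean count of at least 50, since it has fewer counts. Small differences at Ccn1 and the upstream Ccn2 peak are beyond this depth.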

Other observations

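The windows most like each gene were sought over the 6 samples by the root mean square difference of centred log2 CPM, among 38880 windows with a mean count of at least 50 (38881 for Ccn1). For Ankrd23 these were Perm1, a muscle regulator of mitochondrial genes, at 0.028, then Cited2, a transcriptional coregulator, at 0.031 and Gm27533 at 0.033. For Ankrd1 they were Gm14124 at 0.045, F830045P16Rik at 0.048 and Calr-ps at 0.054. Ankrd2 was closest to the DNA repair gene Mgmt at 0.032, 2510039O18Rik at 0.035 and Insl6 at 0.036. Csrp3 was closest to Gm43418 at 0.023, Rnf187 at 0.025 and Gm43215 at 0.030, and Ccn1 to Gm22378 at 0.028, the vesicle protein gene Vamp2 at 0.033 and Gm48867 at 0.035. No window of another of these genes or of the related lists was among the 3 nearest. These likenesses rest on 6 samples and are descriptions. The Ccn1 window itself has a mean count of 22.5, below the limit set for the others, so its profile is uncertain.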
